A study of Mus musculus with 26 samples.

Results

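The genes described here are 38 genes of glycolysis and of the hypoxia response, listed by gene name under those headings with earlier results of these data known. They are 16 glycolytic enzymes, 7 transporters and flux regulators, and 15 hypoxia response genes, out of 47730 features in the count table. All 38 were matched by Ensembl identifier, and all 38 were among the 16637 features with enough counts to test. They were measured by RNA-seq in 26 libraries of E-A14, a Her2-expressing line of mouse mammary tumour cells, either grown in culture or placed in the fourth mammary fat pad of mice aged 6 to 8 weeks of the strain FVB/N. Tumour cells were sorted live as Her2-positive cells without CD90, CD105 or CD45, and divided into an EpCAM-negative and an EpCAM-positive fraction. EpCAM is a surface protein of epithelial cells, and its loss accompanies epithelial-to-mesenchymal change.

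The libraries form 4 tumour groups and the cultures. Depleted mice received 100 µg of anti-CD4 and 100 µg of anti-CD8a antibody 2 times a week from 2 weeks before implantation, and their tumours were collected at day 20, giving 6 EpCAM-negative and 6 EpCAM-positive libraries. Control mice received 100 µg each of rat IgG2a and IgG2b on the same schedule, and their tumours were collected at day 47, giving 6 libraries of each fraction. The cultured line gave 2 libraries, which were not sorted. All cells come from 1 implanted line, control mice were not depleted of T cells, no measure of the depletion is among these libraries, and the sources used here do not say whether any tumours were pooled. Treatment and day of collection cannot be told apart. Where replicates are not stated to be separate animals or cultures, p-values measure only the spread between these libraries, which may be technical.

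Glycolysis breaks glucose down to pyruvate, and lactate dehydrogenase then turns pyruvate into lactate, so that a cell can make ATP without oxygen. Tumour cells often run this pathway even where oxygen is present. When oxygen falls, the prolyl hydroxylases of the EGLN family no longer mark the HIF alpha subunits for destruction, and HIF, paired with ARNT, switches on genes for glucose uptake, glycolysis, blood vessel growth, pH control and mitophagy. HIF binds DNA at the short core motif ACGTG or GCGTG.

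Because many of these genes are known HIF targets, the RefSeq start-site windows of the members were read for that core. The 6 members shown are those with the smallest p-values for the difference between treatments described further on. Each sequence is the 250 bases before the gene's start site in the mouse build GRCm38.p6, written 5′ to 3′ on the gene's own strand. Capitals mark ACGTG or GCGTG on that strand, or their reverse complements CACGT and CACGC. For Pdk1 the first of 2 start-site windows is shown, and the other, which is not shown, holds neither core. The letters CACGTG hold ACGTG on both strands and count once for each.
Bnip3 (chr7:138909507-138909756, minus strand): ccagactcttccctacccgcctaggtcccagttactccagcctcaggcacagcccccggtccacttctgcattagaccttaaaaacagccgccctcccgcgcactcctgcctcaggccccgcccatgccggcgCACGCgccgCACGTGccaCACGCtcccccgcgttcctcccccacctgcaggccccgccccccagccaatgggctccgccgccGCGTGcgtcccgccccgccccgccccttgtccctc
Egln1 (chr8:124949255-124949504, minus strand): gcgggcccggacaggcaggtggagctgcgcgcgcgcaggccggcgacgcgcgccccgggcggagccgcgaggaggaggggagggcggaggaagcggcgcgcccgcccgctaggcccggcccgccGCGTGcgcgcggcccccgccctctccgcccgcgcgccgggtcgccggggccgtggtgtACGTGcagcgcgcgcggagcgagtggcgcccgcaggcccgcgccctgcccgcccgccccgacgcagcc
Slc2a1 (chr4:119108495-119108744, plus strand): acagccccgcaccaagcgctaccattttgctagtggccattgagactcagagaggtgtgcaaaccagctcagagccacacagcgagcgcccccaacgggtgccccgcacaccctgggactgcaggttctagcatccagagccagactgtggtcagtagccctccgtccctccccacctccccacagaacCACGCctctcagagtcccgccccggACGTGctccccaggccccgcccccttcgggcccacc
Higd1a (chr9:121857797-121858046, minus strand): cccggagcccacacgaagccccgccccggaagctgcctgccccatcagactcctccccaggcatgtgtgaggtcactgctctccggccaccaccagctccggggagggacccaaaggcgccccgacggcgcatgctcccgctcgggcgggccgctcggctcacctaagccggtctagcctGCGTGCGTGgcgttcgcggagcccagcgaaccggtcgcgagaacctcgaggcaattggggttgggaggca
Pdk1 (chr2:71872974-71873223, plus strand): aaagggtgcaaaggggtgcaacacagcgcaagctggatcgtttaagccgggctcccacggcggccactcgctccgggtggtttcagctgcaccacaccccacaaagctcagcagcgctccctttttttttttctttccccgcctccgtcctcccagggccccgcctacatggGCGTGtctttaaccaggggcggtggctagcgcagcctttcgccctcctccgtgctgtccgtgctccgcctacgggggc
Hk2 (chr6:82774455-82774704, minus strand): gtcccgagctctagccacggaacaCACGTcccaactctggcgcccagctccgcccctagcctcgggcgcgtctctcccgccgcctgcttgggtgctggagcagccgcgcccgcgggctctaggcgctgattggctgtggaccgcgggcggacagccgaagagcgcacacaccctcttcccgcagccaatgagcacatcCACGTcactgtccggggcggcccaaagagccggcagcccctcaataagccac

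Start-site windows were found for 35 of the 38 members, with 53 windows in all, since some genes have several starts. Slc2a3, Ndrg1 and Bhlhe40 had none. Of the 53 windows, 41 held either core (77.4%), against 38.6% of all 32851 RefSeq windows of that length. Some windows of the same gene overlap, as for Eno1, Aldoa and Pfkm, so that a core can count again. By gene, 32 of the 35 held either core in any window (91.4%), against 41.5% of all 27025 genes. Many members are known HIF targets, and no test of these shares was made. ACGTG was in 47.2% of the members' windows, against 16.6% of all windows, and GCGTG was in 52.8% against 28.2%. The members' windows also had a higher G and C content, with a median of 60.4% against 52.4% over all windows, and both cores hold C and G. These are matches of letters in a short window and no binding was measured here.

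Total counts per library ranged from 18297292 to 23978966 in depleted EpCAM-negative cells, from 17559520 to 25601999 in depleted EpCAM-positive cells, from 32467552 to 38740143 in IgG control EpCAM-negative cells, from 26895429 to 37880702 in IgG control EpCAM-positive cells, and were 27253363 and 35059744 in culture. Depleted and IgG control libraries thus did not overlap in depth. The unit of level is CPM, the count expected in a library of 1e6 counts after TMM scaling, and 3 values for a tumour group are the lowest, the median and the highest of its 6 libraries. One library stood apart for these genes: in IgG control EpCAM-positive replicate 6, only 2 of the 38 members were above the group mean. In the other 23 tumour libraries between 8 and 29 members were. Summed levels of 12 fibroblast and pericyte markers were 155 to 214 CPM in depleted EpCAM-negative cells and 66.0 to 157 CPM in depleted EpCAM-positive cells, against 1836 to 6387 CPM in IgG control EpCAM-negative cells and 1538 to 3617 CPM in IgG control EpCAM-positive cells. Between 6 and 12 of the 12 were detected in a tumour library. Dcn, Pdgfrb and Col1a1 made up most of the IgG control sum. Of the excluded markers in this list, Thy1, which encodes CD90, averaged at most 0.0418 CPM in any group. Thy1 had 10 counts over all 26 libraries, and Eng, which encodes CD105, had 1555. In these bulk samples, fewer cells of a type and less RNA per cell cannot be told apart.

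The first comparison asked how EpCAM-negative tumour cells differ from EpCAM-positive ones when T cells were depleted. In these tumours most of the 38 genes were higher in EpCAM-negative cells: 24 were called higher and 1, Adm, was called lower (edgeR's quasi-likelihood test, Benjamini-Hochberg adjusted p under 0.05 over all features). Over all features 28.5% were called in this comparison, 14.2% higher and 14.3% lower. The members' median log2 fold change was 0.45, against 0.01 over all features. The libraries of both fractions did not overlap for 15 members, a pattern seen for 15.5% of all features. Of the 16 glycolytic enzymes 12 were higher and none was lower, of the 7 transporters and regulators 4 were higher and none was lower, and of the 15 hypoxia response genes 8 were higher and 1 was lower.

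Eno2, the neuronal-type enolase that also occurs in tumours, had 54.4, 69.5 and 87.5 CPM in depleted EpCAM-negative cells, against 14.8, 22.04 and 32.1 CPM in depleted EpCAM-positive cells. Every EpCAM-negative library lay above every EpCAM-positive one. Its log2 fold change was 1.66 ± 0.20 (SE, edgeR adjusted p = 3.7e-07). Bnip3, a mitophagy receptor of the outer mitochondrial membrane, had 64.3, 85.4 and 114 CPM in EpCAM-negative cells, against 31.1, 32.5 and 42.8 CPM in EpCAM-positive cells of the same treatment. These ranges did not overlap either, and the log2 fold change was 1.32 ± 0.19 (SE, edgeR adjusted p = 3.51e-06). Pfkfb4, one of the bifunctional enzymes that set fructose 2,6-bisphosphate and so the pace of phosphofructokinase, had 17.3, 19.8 and 25.5 CPM in the EpCAM-negative and 7.41, 8.44 and 11.6 CPM in the EpCAM-positive cells. It too was apart in all libraries, with a log2 fold change of 1.24 ± 0.22 (SE, edgeR adjusted p = 8.1e-05). Adm, which encodes the vessel-dilating peptide adrenomedullin, went the other way, with 23.1, 30.1 and 50.2 CPM in the EpCAM-negative and 45.4, 59.7 and 118 CPM in the EpCAM-positive cells. The ranges of Adm overlapped, and its log2 fold change was -0.98 ± 0.22 (SE, edgeR adjusted p = 0.00122).

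The remaining enzymes shared smaller differences, spread over most steps of the pathway. Among the called enzymes other than Eno2, the log2 fold changes ran between 0.26 for Pkm, pyruvate kinase, and 0.83 for Hk2, the inducible hexokinase. They included glucose-6-phosphate isomerase Gpi1 (0.76), phosphoglycerate mutase Pgam1 (0.66), phosphoglycerate kinase Pgk1 (0.48), all 3 phosphofructokinase genes and lactate dehydrogenase Ldha (0.39). Aldoc, Tpi1, Gapdh and Eno1 passed no threshold, with log2 fold changes of -0.078, 0.079, -0.20 and 0.12. Among the transporters and regulators, the main glucose transporter Slc2a1 (0.61), the lactate and pyruvate transporter Slc16a1 (0.44) and Pdk1, the kinase that holds pyruvate out of the mitochondrial acetyl-CoA pool (0.76), were also higher. Of the hypoxia response genes, the oxygen-sensing hydroxylases Egln1 (0.76) and Egln3 (2.14), the hypoxia-induced mitochondrial membrane protein gene Higd1a (0.82), the repressor Bhlhe40 (0.46), the mTORC1 inhibitor Ddit4 (0.80), Ankrd37 (0.79) and the histone demethylase Kdm3a (0.36) were higher. Slc2a3, Slc16a3, Pfkfb3, Vegfa, Car9, Ndrg1, P4ha1, P4ha2 and Mxi1 were not called, and all of these had overlapping ranges. Some of the calls were narrow: leaving out 1 library could raise the adjusted p to 0.11 for Ankrd37, 0.0986 for Kdm3a, 0.0937 for Pfkl, 0.0622 for Pkm and 0.0546 for Ddit4. For Egln3, a gene of at most 5.88 CPM in these libraries, the adjusted p became 0.059 without depleted EpCAM-negative replicate 5.

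**Figure D1:**
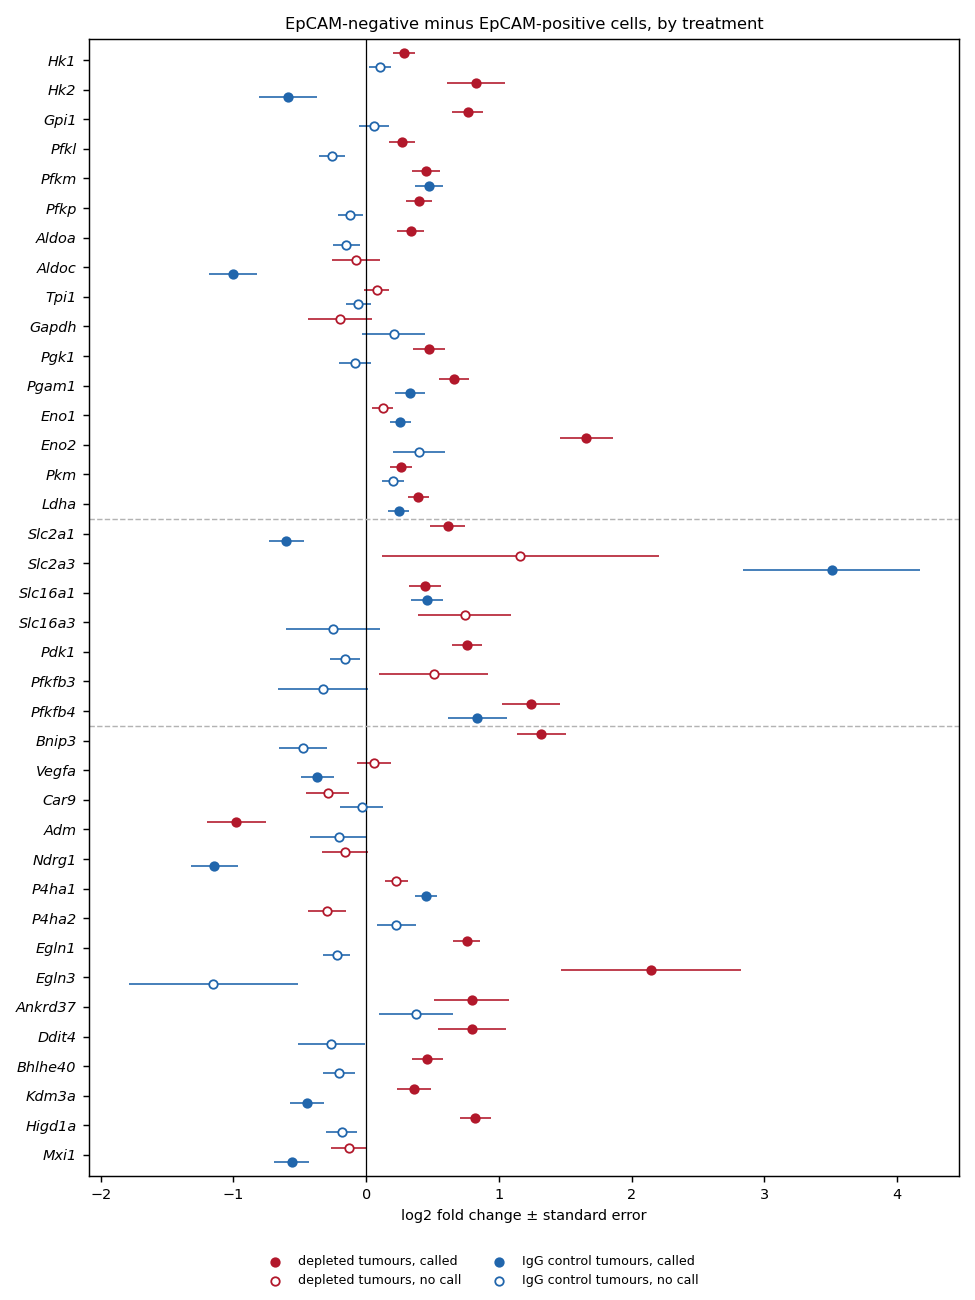
Log2 fold change (x axis, ± standard error) of EpCAM-negative minus EpCAM-positive cells for the 38 members (rows, with dashed lines between enzymes, transporters and regulators, and hypoxia response genes), in depleted tumours (red) and IgG control tumours (blue), n = 6 libraries per fraction and treatment; filled points passed an adjusted p of 0.05. In depleted tumours 24 of 38 members were called to the right of 0 and 1 to the left, and in IgG control tumours 8 to the right and 7 to the left.

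Markers and stress genes also differed between these fractions. The summed level of 22 immediate-early and dissociation genes was 11380.4 to 19950.0 CPM in depleted EpCAM-negative cells, against 8107 to 10810.3 CPM in depleted EpCAM-positive cells. All 22 were detected in every library. The 15 macrophage markers summed to 184 to 397 CPM in the EpCAM-negative and 196 to 293 CPM in the EpCAM-positive cells, which overlapped, and Ptprc, the gene of the excluded CD45, averaged 4.84 CPM in the EpCAM-negative and 4.43 CPM in the EpCAM-positive cells. The 8 tumour epithelial markers summed to 3429 to 4866 CPM in the EpCAM-negative and 9329.8 to 9920.0 CPM in the EpCAM-positive cells. The part of these differences in the members' result was not tested.

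In IgG control tumours the same comparison gave a divided picture. Of the 38 members 8 were called higher and 7 lower in EpCAM-negative cells, where 27.9% of all features were called, 13.3% higher and 14.5% lower. The median log2 fold change of the members was -0.13, against -0.01 over all features. The libraries were apart for 5 members, Pfkm, Aldoc, Slc2a3, P4ha1 and Mxi1, and for 13.4% of all features. Among the enzymes 4 were higher and 2 lower, among transporters and regulators 3 were higher and 1 lower, and among hypoxia response genes 1 was higher and 4 were lower. Without IgG control EpCAM-positive replicate 6, in which nearly all members were low, 5 members were called higher and 11 lower.

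Slc2a3, a high-affinity glucose transporter typical of neurons and white blood cells, had 8.31, 14.3 and 32.8 CPM in IgG control EpCAM-negative cells, against 0.777, 1.15 and 3.46 CPM in IgG control EpCAM-positive cells. The ranges were apart, and the log2 fold change was 3.51 ± 0.67 (SE, edgeR adjusted p = 0.000223). Pfkm, the muscle-type phosphofructokinase, had 67.4, 73.3 and 79.3 CPM in the EpCAM-negative and 44.9, 49.2 and 64.3 CPM in the EpCAM-positive cells, with a log2 fold change of 0.47 ± 0.11 (SE, edgeR adjusted p = 0.00124). Slc16a1 had 149, 182 and 224 CPM in the EpCAM-negative and 97.9, 124 and 171 CPM in the EpCAM-positive cells. Its ranges overlapped, and its log2 fold change was 0.46 ± 0.12 (SE, edgeR adjusted p = 0.00464). Pfkm, Slc16a1 and Pfkfb4 were thus called higher in EpCAM-negative cells under both treatments, as were Ldha and Pgam1. The Ldha and Pgam1 calls in IgG control tumours were lost without single libraries, with adjusted p up to 0.124 and 0.0973.

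Ndrg1, a stress-responsive gene that hypoxia induces, was the most reduced of the members at 10 CPM or more. It had 265, 328 and 544 CPM in IgG control EpCAM-negative cells, against 426, 765 and 1110.2 CPM in IgG control EpCAM-positive cells, a log2 fold change of -1.15 ± 0.18 (SE, edgeR adjusted p = 1.72e-05). Aldoc, the brain-type aldolase, had 14.8, 23.8 and 37.0 CPM in the EpCAM-negative and 38.2, 46.7 and 63.2 CPM in the EpCAM-positive cells, and the log2 fold change was -1.004 ± 0.18 (SE, edgeR adjusted p = 0.000124). The Aldoc ranges were apart, whereas those of Ndrg1 overlapped. Slc2a1 had 222, 263 and 319 CPM in the EpCAM-negative and 231, 432 and 467 CPM in the EpCAM-positive cells. Its log2 fold change was -0.60 ± 0.13 (SE, edgeR adjusted p = 0.00108), and the ranges overlapped only through EpCAM-positive replicate 6, the lowest library of that fraction. Also lower were the MYC antagonist Mxi1 (-0.56), Kdm3a (-0.45), Hk2 (-0.59) and the vessel growth factor Vegfa (-0.37), while the collagen prolyl hydroxylase subunit P4ha1 (0.45) and the enolase Eno1 (0.26) were higher. The calls of Hk2, Vegfa and Eno1 were lost without single libraries, with adjusted p up to 0.114, 0.082 and 0.0935. Macrophage markers summed to 98.7 to 148 CPM in IgG control EpCAM-negative and 179 to 362 CPM in IgG control EpCAM-positive cells, which did not overlap, and tumour epithelial markers to 882 to 1425 CPM in the EpCAM-negative and 3394 to 4702 CPM in the EpCAM-positive cells. Their part in the result was not tested.

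Whether the change between fractions, taken with its sign, differed between depleted and IgG control tumours was tested directly. The measure was the EpCAM-negative minus EpCAM-positive change in depleted tumours minus the same change in IgG control tumours. This difference was called for 18 of the 38 members, all of them positive, whereas 18% of all features were called, 9.33% positive and 8.69% negative. The members' median was 0.50 on the log2 scale, against 0.05 over all features. The 18 were 8 enzymes (Hk2, Gpi1, Pfkl, Pfkp, Aldoa, Aldoc, Pgk1 and Eno2), 2 of the transporters and regulators (Slc2a1 and Pdk1), and 8 hypoxia response genes (Bnip3, Egln1, Egln3, Higd1a, Kdm3a, Bhlhe40, Ndrg1 and Ddit4). Lists of other kinds were also called in 1 direction: the difference was positive for 16 and negative for 0 of the 22 immediate-early and dissociation genes, with a median of 1.06, and positive for 8 and negative for 0 of the 15 macrophage markers, with a median of 2.09. Their part in the members' result was not tested. Among the members, all but Ddit4 (adjusted p up to 0.0755) kept their call without any single library and under every other setting tried.

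The 6 members with the smallest p-values, whose start-site windows are printed above, differed in how this came about. Bnip3 had 28.4, 39.6 and 61.6 CPM in IgG control EpCAM-negative cells, against 40.1, 53.9 and 88.4 CPM in IgG control EpCAM-positive cells, so that the order of the medians was the opposite of that in depleted tumours, although the IgG control ranges overlapped. The difference of the changes was 1.80 ± 0.26 (SE, edgeR adjusted p = 1.84e-05). Egln1, the main oxygen sensor among the HIF hydroxylases, had 143, 176 and 197 CPM in the EpCAM-negative and 82.1, 108 and 120.3 CPM in the EpCAM-positive cells of depleted tumours. In IgG control tumours it had 88.1, 90.2 and 97.9 CPM in the EpCAM-negative and 83.3, 107 and 129 CPM in the EpCAM-positive cells. Only depleted EpCAM-negative cells stood apart from the other 3 tumour groups, and the difference of the changes was 0.98 ± 0.14 (SE, edgeR adjusted p = 1.86e-05). Slc2a1 had 496, 605 and 618 CPM in the EpCAM-negative and 275, 393 and 437 CPM in the EpCAM-positive cells of depleted tumours. It was thus called higher in depleted and lower in IgG control EpCAM-negative cells, and its difference was 1.21 ± 0.19 (SE, edgeR adjusted p = 4.03e-05).

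Higd1a had 29.4, 36.4 and 46.6 CPM in depleted EpCAM-negative cells, against 17.1, 21.9 and 23.5 CPM in depleted EpCAM-positive cells, which were apart. In IgG control tumours it had 27.7, 30.2 and 36.6 CPM in the EpCAM-negative and 28.7, 36.1 and 43.5 CPM in the EpCAM-positive cells. Depleted EpCAM-positive cells were the low group for this gene, and the difference was 1.01 ± 0.17 (SE, edgeR adjusted p = 9.38e-05). Pdk1 had 58.7, 65.2 and 87.4 CPM in the EpCAM-negative and 36.6, 39.9 and 50.1 CPM in the EpCAM-positive cells of depleted tumours, which were apart. In IgG control tumours it had 27.4, 32.0 and 37.3 CPM in the EpCAM-negative and 29.5, 35.0 and 47.7 CPM in the EpCAM-positive cells, which overlapped. As with Egln1, depleted EpCAM-negative cells alone stood above the rest, and the difference was 0.92 ± 0.16 (SE, edgeR adjusted p = 0.000173). Hk2 had 47.2, 82.3 and 113 CPM in the EpCAM-negative and 35.1, 46.7 and 64.2 CPM in the EpCAM-positive cells of depleted tumours. Its IgG control values were 15.1, 19.3 and 31.3 CPM in the EpCAM-negative and 19.7, 30.0 and 43.9 CPM in the EpCAM-positive cells. The ranges of the fractions overlapped under both treatments, and the difference was 1.42 ± 0.31 (SE, edgeR adjusted p = 0.00171).

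**Figure D2:**
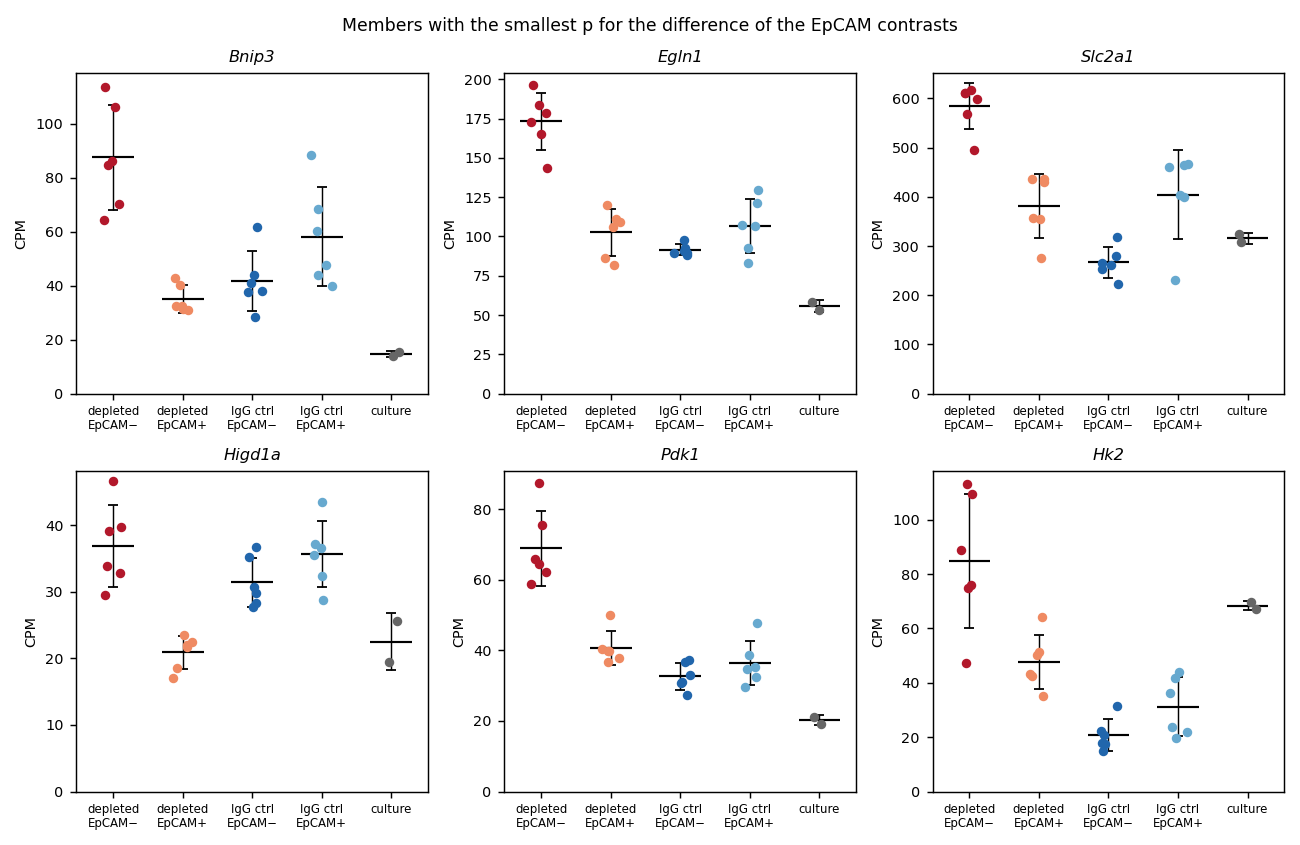
Level in CPM (y axis, from 0) of the 6 members with the smallest p for the difference of the EpCAM changes, 1 point per library (n = 6 per tumour group, n = 2 cultures), with black lines for the mean and bars for ± SD. Depleted EpCAM-negative libraries lie highest for Egln1 and Pdk1 and have no overlap with depleted EpCAM-positive libraries for Bnip3, Slc2a1 or Higd1a.

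Other known hypoxia targets, which were not among the 38, gave counts in the same direction. Of 29 such genes, in depleted tumours 14 were higher and 2 lower in the EpCAM-negative fraction, and in IgG control tumours 1 was higher and 6 were lower in that fraction. The difference of the changes was positive for 16 and negative for none, led by the mitochondrial protein gene Fam162a (0.90 ± 0.16, edgeR adjusted p = 0.000284), the corepressor subunit Sap30 (0.88 ± 0.17, edgeR adjusted p = 0.000473) and the glycogen branching enzyme Gbe1 (0.96 ± 0.19, edgeR adjusted p = 0.000854). Genes for other sugar-handling enzymes and carriers leaned the other way in depleted tumours. Of 25 tested, 3 were higher and 8 lower in depleted EpCAM-negative cells, with a median log2 fold change of -0.27. In IgG control tumours 4 were higher and 8 lower in that fraction, with a median of 0.04. The difference was positive for 3 and negative for 4, with a median of -0.34, against 0.05 over all features. Among the negative ones was Bsg, the chaperone that brings SLC16A carriers to the cell surface (-0.97 ± 0.17, edgeR adjusted p = 0.000152). Of 12 genes for pyruvate entry into mitochondria, the difference was positive for none and negative for Pdk3 and Mpc2. Over all features, 14.2% were called higher and 14.3% lower in depleted EpCAM-negative cells, and 13.3% and 14.5% in IgG control ones. The difference was called positive for 9.33% of all features and negative for 8.69%.

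The next comparison set depleted against IgG control tumours within EpCAM-negative cells. Of the 38 members 19 were higher and 5 lower in depleted tumours, where 45.1% of all features were called, 21.9% higher and 23.2% lower. The members' median log2 fold change was 0.24, against 0.03 over all features, and the libraries were apart for 19 members and for 24.8% of features. Among the enzymes 9 were higher and 1 lower, among transporters and regulators 4 were higher and 2 lower, and among hypoxia response genes 6 were higher and 2 lower. Depth, day of collection and the fibroblast and pericyte marker sum all moved with this comparison. So did the sums of 4 other lists. Macrophage markers summed to 184 to 397 CPM in depleted and 98.7 to 148 CPM in IgG control EpCAM-negative cells, with 11 of 15 called higher and 0 lower. Tumour epithelial markers summed to 3429 to 4866 CPM in depleted and 882 to 1425 CPM in IgG control cells. Neutrophil markers summed to 12.2 to 23.3 CPM in depleted and 1.84 to 5.05 CPM in IgG control cells, and erythroid markers to 3.11 to 19.4 CPM in depleted and 0 to 0.243 CPM in IgG control cells. None of these 4 sums overlapped between treatments, and the part of any of these measures in the members' result was not tested.

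Hk2 had 47.2, 82.3 and 113 CPM in depleted and 15.1, 19.3 and 31.3 CPM in IgG control EpCAM-negative cells. These ranges were apart, and the log2 fold change of 2.03 ± 0.22 (SE, edgeR adjusted p = 4.1e-08) was the largest rise among members at 10 CPM or more. Pfkfb4 had 17.3, 19.8 and 25.5 CPM in depleted and 7.03, 7.39 and 12.7 CPM in IgG control cells, also apart, with a log2 fold change of 1.27 ± 0.22 (SE, edgeR adjusted p = 3.05e-05). Gpi1 had 441, 497 and 578 CPM in depleted and 193, 212 and 253 CPM in IgG control cells, with a log2 fold change of 1.203 ± 0.12 (SE, edgeR adjusted p = 3.62e-09). The ranges of Gpi1 were apart as well. Slc2a1 (1.13), Kdm3a (1.10), Pdk1 (1.08), Bnip3 (1.07), Mxi1 (0.94) and Egln1 (0.92) rose by similar amounts. Slc16a3, the lactate exporter of glycolytic cells, rose by 1.94 on the log2 scale at a low level, with medians of 2.61 CPM in depleted and 0.785 CPM in IgG control cells. The calls of Ldha, Pkm and Pfkm were lost without single libraries, with adjusted p up to 0.117, 0.0867 and 0.0819.

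Slc2a3 was the most reduced member, with 0, 0.100 and 0.632 CPM in depleted EpCAM-negative cells, against 8.31, 14.3 and 32.8 CPM in IgG control EpCAM-negative cells. In 3 of these depleted libraries no count was found, and the log2 fold change was -6.23 ± 0.81 (SE, edgeR adjusted p = 5.6e-07). Pfkfb3, the bifunctional enzyme isoform that most strongly favours glycolysis, had 1.95, 2.26 and 3.38 CPM in depleted and 20.6, 28.8 and 62.1 CPM in IgG control cells. The groups were far apart, with a log2 fold change of -3.89 ± 0.40 (SE, edgeR adjusted p = 9.69e-09). Adm had 23.1, 30.1 and 50.2 CPM in depleted and 74.2, 91.8 and 130.2 CPM in IgG control cells, with a log2 fold change of -1.52 ± 0.22 (SE, edgeR adjusted p = 3.33e-06). Bhlhe40 (-0.53) and Pfkm (-0.28) were the other members called lower.

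In EpCAM-positive cells, depleted tumours had 10 members higher and 12 lower than IgG control tumours, where 40% of all features were called, 17.6% higher and 22.4% lower. The members' median log2 fold change was -0.02, the same to 2 decimals as over all features, and 7 members were apart, against 21.7% of features. Enzymes were divided, with 5 higher and 3 lower, and so were transporters and regulators, with 2 in each direction. Hypoxia response genes were 3 higher and 7 lower. Depth and day of collection moved with this comparison too. Of the 22 immediate-early and dissociation genes 0 were higher and 21 lower, and their sum was 8107 to 10810.3 CPM in depleted and 14210.3 to 24629.5 CPM in IgG control EpCAM-positive cells. Tumour epithelial markers summed to 9329.8 to 9920.0 CPM in depleted and 3394 to 4702 CPM in IgG control cells, and fibroblast and pericyte markers to 66.0 to 157 CPM in depleted and 1538 to 3617 CPM in IgG control cells. Neutrophil markers summed to 9.24 to 19.3 CPM in depleted and 2.25 to 4.51 CPM in IgG control cells. Erythroid markers summed to 4.62 to 19.8 CPM in depleted and 0.0349 to 0.822 CPM in IgG control cells. For T and NK cell markers the sums were 0.444 to 0.778 CPM in depleted and 1.36 to 4.45 CPM in IgG control cells. None of these sums overlapped between treatments, and their part in the members' result was not tested. Without IgG control EpCAM-positive replicate 6, in which nearly all members were low, 5 members were higher and 13 lower.

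Pfkfb3 was the most reduced of the members at 10 CPM or more, with 0.0990, 1.97 and 2.75 CPM in depleted EpCAM-positive cells, against 27.6, 35.1 and 78.2 CPM in IgG control EpCAM-positive cells, and a log2 fold change of -4.72 ± 0.41 (SE, edgeR adjusted p = 1.1e-09). Bhlhe40 had 641, 749.6 and 992 CPM in depleted and 1324, 1793 and 2046 CPM in IgG control cells, with a log2 fold change of -1.20 ± 0.12 (SE, edgeR adjusted p = 1.02e-08). Eno2 had 14.8, 22.04 and 32.1 CPM in depleted and 25.1, 48.3 and 71.2 CPM in IgG control cells, with a log2 fold change of -1.07 ± 0.20 (SE, edgeR adjusted p = 9.82e-05). Pfkfb3 was lower in depleted tumours in both fractions, whereas the Eno2 call was made in EpCAM-positive cells and its log2 fold change in EpCAM-negative cells was 0.19. Car9, a carbonic anhydrase that exports acid from hypoxic cells, was higher instead, with 64.6, 73.3 and 84.6 CPM in depleted and 27.5, 42.3 and 45.2 CPM in IgG control EpCAM-positive cells. Its log2 fold change was 0.90 ± 0.16 (SE, edgeR adjusted p = 7.8e-05), and in EpCAM-negative cells it was 0.64 ± 0.16 (SE, edgeR adjusted p = 0.00209). Mxi1 had 101, 137 and 170.0 CPM in depleted and 78.6, 91.8 and 121 CPM in IgG control EpCAM-positive cells, with a log2 fold change of 0.51 ± 0.13 (SE, edgeR adjusted p = 0.00313). Hk2 was called higher (0.61 ± 0.22, edgeR adjusted p = 0.0271), but its adjusted p reached 0.0764 without single libraries, among them depleted replicate 6 and IgG control replicate 2. Calls of Slc16a3, Tpi1, Pgk1 and Eno1 were lost in the same way, with adjusted p up to 0.128, 0.106, 0.0947 and 0.066, and that of P4ha2 without IgG control EpCAM-positive replicate 1 (0.0504).

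**Figure D3:**
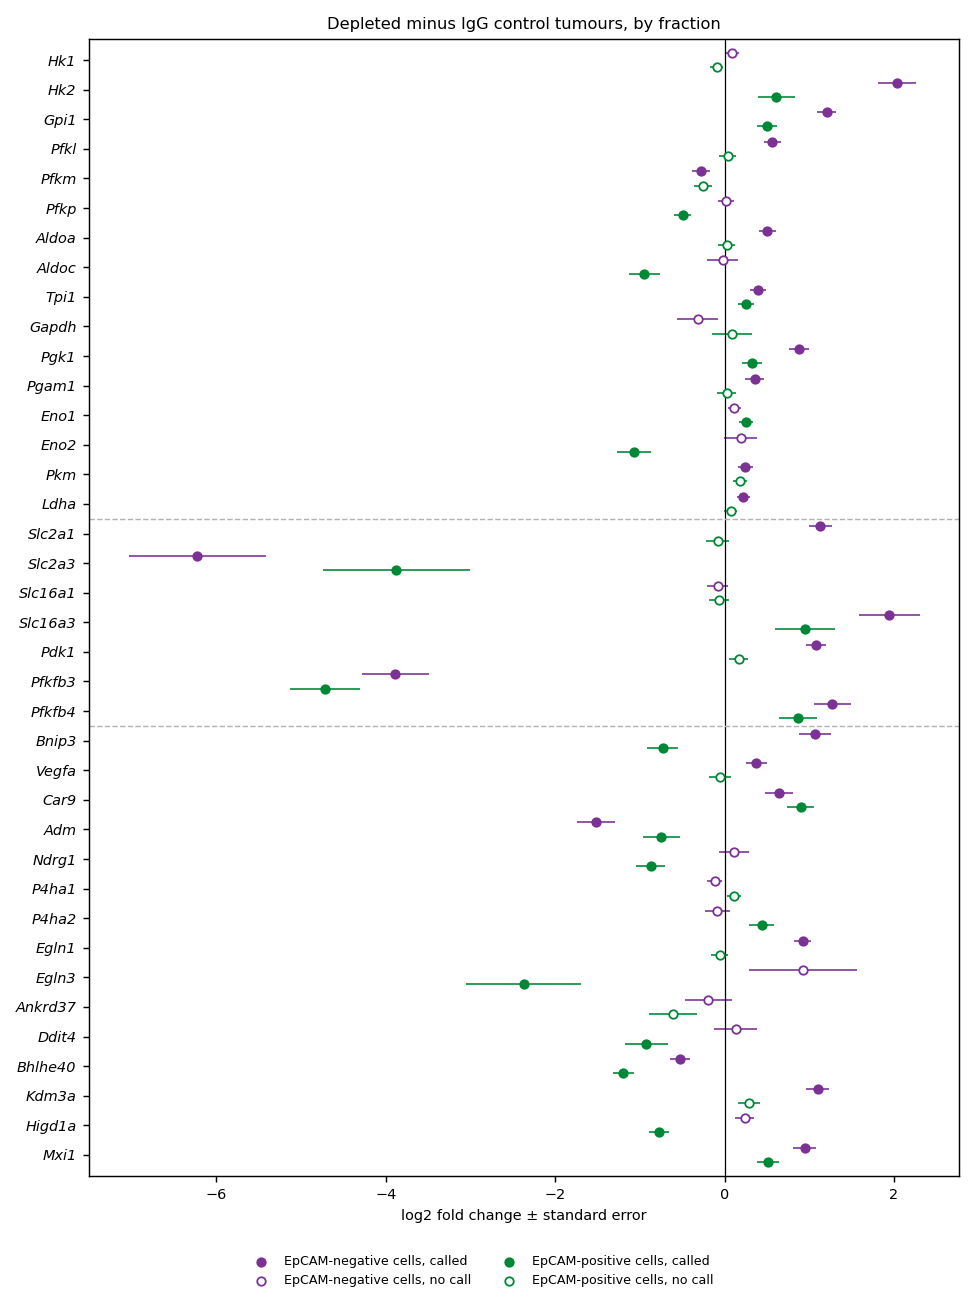
Log2 fold change (x axis, ± standard error) of depleted minus IgG control tumours for the 38 members (rows, with dashed lines between the role groups), in EpCAM-negative cells (purple) and EpCAM-positive cells (green), n = 6 libraries per fraction and treatment; filled points passed an adjusted p of 0.05. Slc2a3 and Pfkfb3 lie far to the left in both fractions, and Hk2 lies farthest to the right in EpCAM-negative cells at a log2 fold change of 2.03.

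The HIF subunits and their regulators, which were not among the 38, followed patterns of their own. Hif1a had 133, 172 and 208 CPM in the EpCAM-negative and 78.1, 104 and 144 CPM in the EpCAM-positive cells of depleted tumours, and 96.9, 137 and 149 CPM in the EpCAM-negative and 65.5, 88.9 and 103 CPM in the EpCAM-positive cells of IgG control tumours. It was higher in EpCAM-negative cells under both treatments, with log2 fold changes of 0.75 ± 0.14 (SE, edgeR adjusted p = 0.000132) in depleted and 0.55 ± 0.14 (SE, edgeR adjusted p = 0.00304) in IgG control tumours. Epas1, which encodes the other main HIF alpha subunit, had 15.6, 28.1 and 33.8 CPM in the EpCAM-negative and 46.9, 59.2 and 70.8 CPM in the EpCAM-positive cells of depleted tumours. In IgG control tumours it had 135, 149 and 189 CPM in the EpCAM-negative and 104, 111 and 143 CPM in the EpCAM-positive cells. The change between fractions was -1.17 ± 0.15 (SE, edgeR adjusted p = 7.73e-07) in depleted and 0.42 ± 0.14 (SE, edgeR adjusted p = 0.0304) in IgG control tumours, and their difference was -1.58 ± 0.21 (SE, edgeR adjusted p = 4.52e-06). Epas1 was also lower in depleted than in IgG control tumours, by a log2 fold change of -2.55 ± 0.15 (SE, edgeR adjusted p = 8.47e-13) in EpCAM-negative and -0.97 ± 0.15 (SE, edgeR adjusted p = 6.44e-06) in EpCAM-positive cells. Arnt, the shared partner, had 95.8, 109 and 126 CPM in the EpCAM-negative and 68.0, 105 and 118 CPM in the EpCAM-positive cells of depleted tumours, and medians of 102 CPM in the EpCAM-negative and 114 CPM in the EpCAM-positive cells of IgG control tumours. Its log2 fold change between fractions was 0.13 in depleted and -0.11 in IgG control tumours, with no call. In culture, Hif1a was at 176 and 191 CPM, Epas1 at 18.3 and 17.4 CPM, and Arnt at 50.7 and 70.8 CPM. Hif1a was thus higher in culture than in every library of both IgG control fractions and of depleted EpCAM-positive cells. Epas1 was lower in culture than in all tumour groups but depleted EpCAM-negative cells, whose range included both culture values. These are RNA levels, and HIF alpha protein, which oxygen controls, was not measured.

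**Figure D4:**
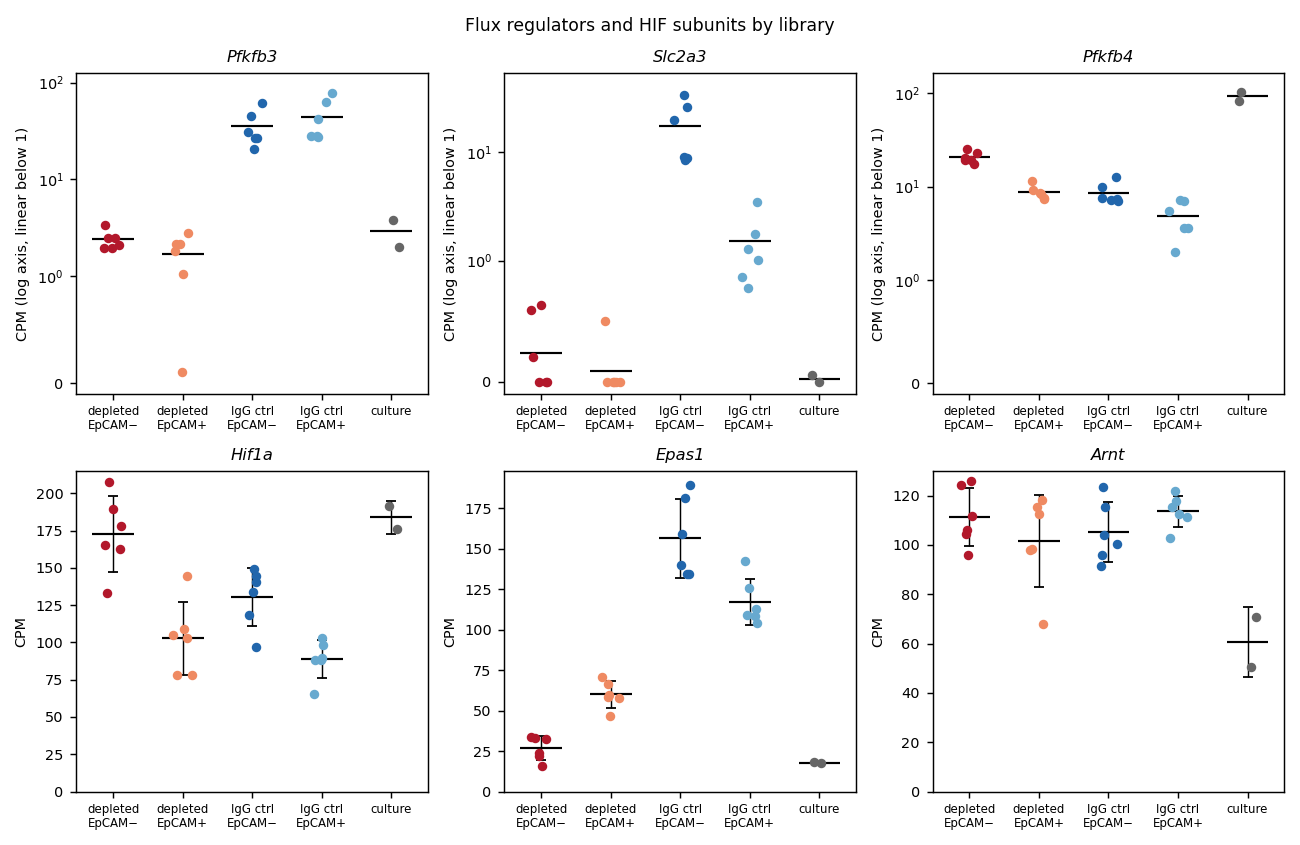
Level in CPM per library (n = 6 per tumour group, n = 2 cultures) of Pfkfb3, Slc2a3 and Pfkfb4 (upper row, log axis, linear below 1 CPM, lines for the mean) and of the HIF subunit genes Hif1a, Epas1 and Arnt (lower row, linear axis from 0, lines for the mean and bars for ± SD). Pfkfb3, Slc2a3 and Epas1 are higher in both IgG control fractions than in depleted ones, and Pfkfb4 is highest in culture.

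Levels per length, as mean CPM per kilobase of exon, show how RNA was divided between member isoforms of a step. Isoforms outside the members, such as Eno3 and Pfkfb2, were left out, so a share need not show the main isoform of a step. Hk1, the constitutively expressed hexokinase, made up 74.6% of the Hk1 and Hk2 sum in depleted EpCAM-negative cells and 81.1% in depleted EpCAM-positive cells, against 91.9% in IgG control EpCAM-negative and 87.5% in IgG control EpCAM-positive cells. In culture it was 72.6%. Pfkfb3 made up 6.87% of the Pfkfb3 and Pfkfb4 sum in depleted EpCAM-negative cells and 10.9% in depleted EpCAM-positive cells, against 72.6% in IgG control EpCAM-negative cells, 85.6% in IgG control EpCAM-positive cells and 1.95% in culture. This pair thus changed places between treatments. Slc2a1 kept at least 96.9% of the Slc2a1 and Slc2a3 sum in every group, and Aldoa at least 95.1% of the Aldoa and Aldoc sum. Eno2 held 18.3% of the Eno1 and Eno2 sum in depleted EpCAM-negative cells and 7.18% in depleted EpCAM-positive cells. Its share was 17.5% in IgG control EpCAM-negative cells, 16.2% in IgG control EpCAM-positive cells and 3% in culture. Over all libraries Eno3 had 137903 counts on 1739 exon bases, against 231530 on 5379 for Eno1 and 34022 on 4705 for Eno2. The Eno1 and Eno2 shares thus do not show which enolase gene was carried by most RNA. Pfkfb2 had 8218 counts, against 16173 for Pfkfb3 and 13008 for Pfkfb4. Of 50-base windows, 26% of Eno1 and 0.136% of Eno2 also occur in transcripts of other genes. Shares are ratios of group means and carry no test.

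Several levels are uncertain because reads of 50 bases could also come from near-identical copies. The share of 50-base windows also found in transcripts of other genes was 53.9% for Pgk1, 47.2% for Bnip3, 36.2% for Pgam1, 26% for Eno1, 25.8% for Pkm, 25.1% for Gapdh, which shares them with 223 other genes, and 24.4% for Higd1a. Gapdh, one of the most abundant messages of most cells, was at medians of 24.9 CPM in depleted EpCAM-negative cells and 29.5 CPM in IgG control EpCAM-negative cells in this table, far below Aldoa or Pkm. The sources used here do not give how the authors' counting divided such reads.

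The last comparisons set tumour cells against the same line in culture. Most members were higher in tumours. Depleted EpCAM-negative cells had 31 of the 38 higher and 2 lower, where 42.4% of features were called, 21.8% higher and 20.6% lower. Depleted EpCAM-positive cells had 23 higher and 2 lower, with 39.5% of features called, 20.9% higher and 18.6% lower. IgG control EpCAM-negative cells had 29 higher and 4 lower, with 50.7% of features called, 26.5% higher and 24.2% lower, and IgG control EpCAM-positive cells had 26 higher and 3 lower, with 50.2% called, 27.8% higher and 22.4% lower. The members' median log2 fold changes in that order were 1.08, 0.85, 0.70 and 0.90, against 0.09, 0.11, 0.08 and 0.17 over all features. No tumour library overlapped the cultures for 34, 28, 31 and 28 members in that order, and for 46.7%, 45.7%, 55.9% and 54.7% of features. The 15 hypoxia response genes were all higher in both EpCAM-negative groups, 12 were higher in depleted EpCAM-positive cells and 14 in IgG control EpCAM-positive cells, and none was lower in any group. Without 1 of the 2 cultures, 25 or 26 members were called in depleted EpCAM-negative, 18 or 19 in depleted EpCAM-positive, 23 or 25 in IgG control EpCAM-negative and 24 or 26 in IgG control EpCAM-positive cells. Immediate-early genes summed to 11380.4 to 19950.0 CPM in depleted EpCAM-negative cells and at least 8107 CPM in any tumour library, against 1944 to 2006 CPM in culture. Fibroblast and pericyte markers summed to 18.8 to 20.3 CPM in culture, against at least 66.0 CPM in any tumour library. Endothelial markers summed to 7.60 to 8.14 CPM in culture, against at least 19.2 CPM. Macrophage markers, at 101 to 108 CPM in culture, overlapped IgG control EpCAM-negative cells (98.7 to 148 CPM). Neutrophil markers, at 30.2 to 31.9 CPM in culture, were above every tumour library. Cultured cells were neither digested from tissue nor sorted. The part of this and of the markers in the result was not tested.

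Adm had 23.1, 30.1 and 50.2 CPM in depleted EpCAM-negative cells, 45.4, 59.7 and 118 CPM in depleted EpCAM-positive cells, 74.2, 91.8 and 130.2 CPM in IgG control EpCAM-negative cells and 87.7, 108 and 159 CPM in IgG control EpCAM-positive cells, against 1.54 and 2.51 CPM in culture. Every tumour library was above both cultures. The log2 fold changes over culture were 4.05 ± 0.42 (SE, edgeR adjusted p = 2.12e-08) in depleted EpCAM-negative cells and 5.78 ± 0.46 (SE, edgeR adjusted p = 9.88e-11) in IgG control EpCAM-positive cells. Ankrd37, an ankyrin repeat protein gene induced by HIF, had 12.1, 29.2 and 41.1 CPM in depleted EpCAM-negative and 20.6, 27.7 and 50.6 CPM in IgG control EpCAM-negative cells, against 1.09 and 1.43 CPM in culture. Its log2 fold change was 4.46 ± 0.55 (SE, edgeR adjusted p = 3.22e-07) in depleted and 4.65 ± 0.56 (SE, edgeR adjusted p = 1.01e-07) in IgG control EpCAM-negative cells, and 17% of its 50-base windows also occur in transcripts of Lrp2bp or Ufsp2. P4ha1, which prepares collagen for folding, had 367, 394 and 436 CPM in depleted EpCAM-positive cells, against 73.6 and 78.6 CPM in culture. Its log2 fold changes lay between 2.29 and 2.74 in all 4 groups. Eno2, at 8.01 and 10.3 CPM in culture, had a log2 fold change over culture of 2.96 ± 0.34 (SE, edgeR adjusted p = 8.11e-08) in depleted EpCAM-negative cells.

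Pfkfb3 was called above culture in both IgG control groups and in neither depleted group, and the test between treatments is given above. The log2 fold change was 3.61 ± 0.61 (SE, edgeR adjusted p = 2.03e-05) in IgG control EpCAM-negative and 3.94 ± 0.63 (SE, edgeR adjusted p = 8.49e-06) in IgG control EpCAM-positive cells, against 1.99 and 3.76 CPM in culture. In depleted cells it was -0.28 ± 0.53 (SE, edgeR adjusted p = 0.715) in the EpCAM-negative and -0.78 ± 0.53 (SE, edgeR adjusted p = 0.254) in the EpCAM-positive fraction, and both ranges included a culture value. For Slc2a3 and Egln3, the cultures held 2 counts and 1 count in all. The ratio of CPM to culture was 615 (95% counting interval 170 to 5080) for Slc2a3 in IgG control EpCAM-negative cells, and 7.75 (1.96 to 67.2) in depleted EpCAM-negative cells. For Egln3 it was 207 (37 to 8200) in depleted EpCAM-negative cells and 236 (42.1 to 9320) in IgG control EpCAM-positive cells. Such intervals cover counting error only, as the PCR reads carry no molecular identifiers.

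Few members ran the other way. Pfkfb4 was below culture in every tumour library, with medians of 19.8 CPM in depleted EpCAM-negative, 8.44 CPM in depleted EpCAM-positive, 7.39 CPM in IgG control EpCAM-negative and 4.54 CPM in IgG control EpCAM-positive cells, against 83.6 and 103 CPM in culture. Its log2 fold changes over culture were -2.17 ± 0.27 (SE, edgeR adjusted p = 4.52e-07) in depleted EpCAM-negative, -3.41 ± 0.27 (SE, edgeR adjusted p = 3.28e-10) in depleted EpCAM-positive, -3.44 ± 0.27 (SE, edgeR adjusted p = 7.83e-11) in IgG control EpCAM-negative and -4.27 ± 0.28 (SE, edgeR adjusted p = 2.58e-12) in IgG control EpCAM-positive cells. Slc16a1 was also lower in all 4 groups, with log2 fold changes between -1.01 and -0.48. For Slc16a1 the calls in both EpCAM-negative groups were lost without 1 culture, with adjusted p up to 0.0519 in depleted and 0.0975 in IgG control cells. Hk2 was lower than culture in IgG control cells, with log2 fold changes of -1.72 ± 0.28 (SE, edgeR adjusted p = 1.33e-05) in the EpCAM-negative and -1.13 ± 0.29 (SE, edgeR adjusted p = 0.00192) in the EpCAM-positive fraction. In depleted cells its log2 fold change was 0.31 in the EpCAM-negative and -0.52 in the EpCAM-positive fraction, with no call, and culture had 67.2 and 69.7 CPM. Pgk1 was called lower in IgG control EpCAM-negative cells (-0.40), a call lost without either culture (adjusted p up to 0.168).

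**Figure D5:**
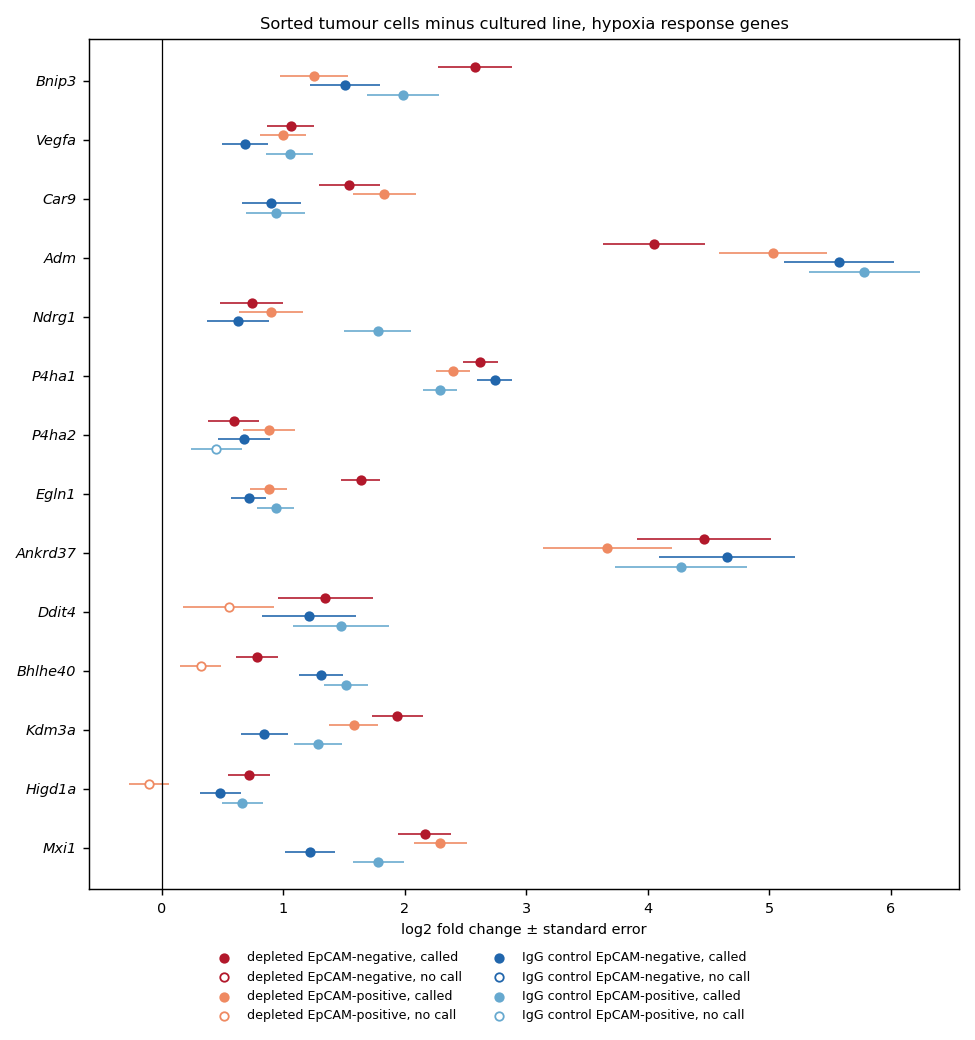
Log2 fold change (x axis, ± standard error) of sorted tumour cells minus the cultured line for 14 hypoxia response genes (rows; Egln3, with 1 count in culture, is left out), in the 4 tumour groups (colours, n = 6 each, against n = 2 cultures); filled points passed an adjusted p of 0.05. Adm, Ankrd37 and P4ha1 lie far to the right in all 4 groups, and no filled point lies to the left of 0.

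Among genes of the wider pathway, the 29 other hypoxia targets were 18 higher and 3 lower than culture in depleted EpCAM-negative cells, 13 higher and 4 lower in depleted EpCAM-positive cells, 10 higher and 7 lower in IgG control EpCAM-negative cells, and 15 higher and 3 lower in IgG control EpCAM-positive cells. The 25 other sugar-handling genes were 2 higher and 13 lower in depleted EpCAM-negative cells, 2 higher and 9 lower in depleted EpCAM-positive cells, 7 higher and 13 lower in IgG control EpCAM-negative cells, and 7 higher and 11 lower in IgG control EpCAM-positive cells. Lower in depleted EpCAM-negative cells were, among others, G6pdx, the entry enzyme of the pentose phosphate pathway (-1.30 ± 0.100, edgeR adjusted p = 1.25e-10), Taldo1 of the same pathway (-1.32 ± 0.11, edgeR adjusted p = 4.72e-10) and Pck2, mitochondrial PEP carboxykinase (-2.63 ± 0.18, edgeR adjusted p = 1.95e-11). G6pdx and Pck2 were also lower than culture in IgG control EpCAM-positive cells (-1.87 and -2.48). Of 12 genes for pyruvate entry, 2 to 4 were higher and 5 or 6 lower in each of the 4 groups, with the kinase gene Pdk2 higher in all 4 groups by log2 fold changes between 1.94 and 3.66. Over all features, 21.8% were called higher and 20.6% lower in depleted EpCAM-negative cells, and 20.9% and 18.6% in depleted EpCAM-positive cells. In IgG control tumours these shares were 26.5% and 24.2% in EpCAM-negative and 27.8% and 22.4% in EpCAM-positive cells.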

How the data were processed

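RNA of 26 samples was amplified from 0.1 to 1.0 ng with the SMARTer v4 kit by 10, 12 or 14 PCR cycles, made into Nextera XT libraries and sequenced as single reads of 50 bases, per the labels' protocols. Cycle numbers are not assigned to libraries in the labels. Neither strand nor molecule is marked by this kit, so antisense partners of a gene cannot be told apart. The authors deposited raw read counts per gene, which the submitters' processing notes tie to STAR and mm9, the mouse build. For the counting program, annotation and strand setting, the sources used here give nothing. A second table, made with DESeq2 1.22.2 per the same notes, was not used. No coordinates are given for the counted genes, and the promoter windows are on GRCm38.p6.

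The 38 members and the other gene lists were chosen with earlier results of these data known, so their counts and medians are given as descriptions, without a test over the list. Of 47729 Ensembl genes, 47224 were matched to a GENCODE M21 symbol. Counts as deposited were normalized by TMM in edgeR 4.0.16 under R 4.3.3 and filtered by counts per group, which left 16637 features. All 26 libraries entered 1 quasi-likelihood model with a coefficient for each group, and 9 comparisons were tested with Benjamini-Hochberg adjustment over all features at 0.05. Standard errors were derived from the test statistic. Depth ran from 17559520 to 38740143 counts per library. The step was tested on simulated data. Values were named for up to 3 members in each direction and comparison with the largest change among those called and at 10 CPM or more in the higher group, and for the 6 with the smallest p in the difference test. Genes outside the members were named by smallest p, up to 3 per list and comparison. Levels of Hif1a, Epas1 and Arnt were given whether or not they were called, with log2 fold changes for some comparisons only. A gene that this rule named is not reported here. Further members are named in lists of those called or not called. Alternatives were RLE size factors, DESeq2 1.42.0, no filter, only the groups compared, thinned counts, a replicate block and leaving out each library. The labels' replicate numbers were not taken as pairs, since not every same-numbered pair correlated above 0.1.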

Additional observations from a re-analysis of the deposited data

Results flagged for a closer look

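In 11 of the 152 sets of 6 libraries that were examined (38 members in 4 tumour groups), 1 library lay far from the other 5, and chance alone gives about 1 in 20. These 11 came from 9 members. Slc2a1 was at 231 CPM and Vegfa at 344 CPM in IgG control EpCAM-positive replicate 6, each the lowest of its group, where the other libraries lay between 399 and 467 CPM for Slc2a1 and between 510.5 and 587 CPM for Vegfa. Depleted EpCAM-negative replicate 5 was the highest of its group for Pgam1 at 27.9 CPM and for Pfkfb3 at 3.38 CPM, and depleted EpCAM-positive replicate 5 was the highest for Pdk1 at 50.1 CPM. Slc2a3 was at 0.504 CPM in depleted EpCAM-positive replicate 3, with no count in the other 5, and at 3.46 CPM in IgG control EpCAM-positive replicate 5. Adm was at 159 CPM in IgG control EpCAM-positive replicate 2, and P4ha1 at 656 CPM in IgG control EpCAM-negative replicate 4, each the highest of its group. P4ha2 was lowest at 81.3 CPM in depleted EpCAM-negative replicate 3 and at 57.1 CPM in IgG control EpCAM-negative replicate 1.

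The EpCAM-negative minus EpCAM-positive change, taken with its sign, was more positive in depleted than in IgG control tumours for 18 members. This rests on the test of that difference itself. The change was not always larger in size. Ndrg1 and Aldoc were called lower in EpCAM-negative cells of IgG control tumours and were not called in depleted ones. On the log2 scale the difference was 3.30 for Egln3, 1.80 for Bnip3, 1.42 for Hk2, 1.26 for Eno2, 1.21 for Slc2a1, 1.06 for Ddit4, 1.01 for Higd1a, 0.99 for Ndrg1, 0.98 for Egln1, 0.93 for Aldoc, 0.92 for Pdk1, 0.81 for Kdm3a, 0.70 for Gpi1, 0.67 for Bhlhe40, 0.56 for Pgk1, 0.53 for Pfkl, 0.52 for Pfkp and 0.48 for Aldoa. Egln3 reached at most 5.88 CPM in a depleted EpCAM-negative library, so that its value is the least precise, with a standard error of 0.93.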

How the results depend on the processing

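The counts of members called stayed within 1.5 times their main values under all settings run. With a block for each treatment and replicate number, 27 members were called between fractions in depleted tumours and 19 in IgG control tumours. The difference between them was called for 22. Between treatments, the block was the replicate number alone, which joined libraries of different mice (correlations -0.0645 to 0.0488). There 23 were called for EpCAM-negative cells and 22 for EpCAM-positive cells. Without a block these counts were 25, 15, 18, 24 and 22. Between fractions, correlations of same-numbered libraries were 0.0175 to 0.0469 in depleted and 0.0497 to 0.172 in IgG control tumours. In the latter each library correlated best with its own number, a hint from the data and not the design. Leaving out 1 library gave 21 to 24 members between fractions in depleted tumours, 11 to 16 in IgG control tumours, 17 to 19 for the difference, 22 to 25 between treatments for EpCAM-negative cells and 18 to 25 for EpCAM-positive cells. Against culture it gave 25 to 33 in depleted EpCAM-negative, 18 to 24 in depleted EpCAM-positive, 23 to 32 in IgG control EpCAM-negative and 24 to 32 in IgG control EpCAM-positive cells. Over RLE size factors, DESeq2, no filter, only the groups compared and thinned counts, the count between fractions was lowest at 23 in depleted and at 11 in IgG control tumours. Of the 224 calls made for members, 168 held under every alternative and none reversed, and 26 values without a call changed sign under 1 or more alternatives without gaining one. Depleted libraries were shallower, which limits low members such as Egln3, Slc2a3 and Slc16a3.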

Other observations

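Among hypoxia targets outside the 38 members, Car12, a membrane carbonic anhydrase related to Car9, had the smallest p-value between treatments in both fractions. Its level was 2.62, 4.46 and 5.38 CPM in depleted EpCAM-negative and 3.95, 4.74 and 5.40 CPM in depleted EpCAM-positive cells, against 45.9, 204 and 272 CPM in IgG control EpCAM-negative and 315, 401 and 464 CPM in IgG control EpCAM-positive cells. The log2 fold change of depleted over IgG control was -5.43 ± 0.31 (SE, edgeR adjusted p = 2.87e-13) in EpCAM-negative and -6.39 ± 0.32 (SE, edgeR adjusted p = 4.12e-14) in EpCAM-positive cells, opposite in sign to that of Car9. Pgf, which encodes placental growth factor, was lower in EpCAM-negative than in EpCAM-positive cells, with log2 fold changes of -2.10 ± 0.22 (SE, edgeR adjusted p = 4.94e-08) in depleted and -1.26 ± 0.22 (SE, edgeR adjusted p = 7.57e-05) in IgG control tumours.

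Bpgm, which makes 2,3-bisphosphoglycerate from a glycolytic intermediate, was lower in depleted than in IgG control tumours, with log2 fold changes of -2.02 ± 0.14 (SE, edgeR adjusted p = 5.65e-12) in EpCAM-negative and -1.70 ± 0.14 (SE, edgeR adjusted p = 2.38e-10) in EpCAM-positive cells. Mpc2, a subunit of the mitochondrial pyruvate carrier, was lower as well (-1.33 ± 0.093, edgeR adjusted p = 1.2e-11 in EpCAM-negative and -0.92 ± 0.093, edgeR adjusted p = 1.17e-08 in EpCAM-positive cells), and so was the pyruvate dehydrogenase kinase gene Pdk2 (-1.38 ± 0.17, edgeR adjusted p = 1.45e-07 in EpCAM-negative and -1.57 ± 0.17, edgeR adjusted p = 2.72e-08 in EpCAM-positive cells). Pdk1, a member, was higher in depleted EpCAM-negative cells by a log2 fold change of 1.08 ± 0.11 (SE, edgeR adjusted p = 1.67e-08).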
